A study of Rattus norvegicus with 3 samples.

Results

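Potassium channel subunits were followed across 3 expression arrays of rat brainstem. The set holds every gene whose only symbol in the platform's probe table starts with Kcn, which gave 75 of 14217 named genes, measured by 126 of 31099 probe sets. No probe set that lists several symbols held such a gene. Each gene was given the value of its brightest probe set by the mean over the 3 arrays. Of the 75 genes, 39 had a mean at or above 7.44 in log2 signal, the median of the probe sets that are not controls. That value is used here as a floor, because signals below it are erratic, and 36 genes lay under it. The array from hand acupuncture, the array from TBI (traumatic brain injury) and the array from sham rats were each taken 1 h after modelling. Per the series' design text the tissue of 5 rats was mixed, so each array is taken here to hold 1 pool of its group. The label Hand Acu does not give the needle sites or say whether those rats were also injured, and strain, sex, age and the kind of injury are not given in the sources used here. With 1 array per group, the differences have no replicate check and are given without tests or p-values.

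Potassium channels let potassium leave or enter cells and so set the resting potential, shape the action potential and limit repetitive firing. Voltage-gated channels are built from pore-forming subunits that open on depolarisation, while inward rectifiers and tandem-pore leak channels work near rest. Auxiliary subunits do not form a pore of their own but change the trafficking and gating of the pores they bind. In the brainstem such channels serve fast and precisely timed firing in auditory and motor circuits, and inward rectifiers of astrocytes clear potassium from around neurons.

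The values are log2 MAS5 signals, in which mismatch signal was subtracted. The median signal was 174.2 with hand acupuncture, 174.1 with TBI and 174.7 in sham. Beta-actin probe sets at the 3' end over those at the 5' end, which rises as RNA is broken down or copied short, gave 6.69 with hand acupuncture, 6.37 with TBI and 5.58 in sham. The same ratio for Gapdh was 1.28 with hand acupuncture and 1.20 with TBI, with sham between them, so it did not set the sham array apart. As a check of the tissue, all 13 neuron markers and all 14 astrocyte markers found were above the floor, as were 17 of 20 cerebellum markers and 5 of 14 hindbrain markers, among them Hoxa5, Slc6a4 and Chat. Of 13 forebrain markers found, 9 were above the floor as well. Markers of the noradrenergic and glycinergic cells of the brainstem, Dbh and Slc6a5, lay below the floor on all 3 arrays. The summed signal of the cerebellum markers was 34331 with hand acupuncture, 34915 with TBI and 45941 in sham, so it was highest on the sham array. For the hindbrain markers the sums were 1977 with hand acupuncture, 2075 with TBI and 1576 in sham, and for the forebrain markers 6080 with hand acupuncture, 6317 with TBI and 5282 in sham, both lowest on the sham array. These are bulk samples, so fewer cells of a type and less RNA per cell cannot be told apart.

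Probe sets bind with unequal strength, so signals compare the arrays for 1 gene and do not rank genes by abundance. By class, 15 of 24 voltage-gated pore-forming subunits, 3 of 7 silent or modifier subunits, 2 of 5 calcium- or sodium-activated subunits, 7 of 15 inward rectifiers, 3 of 11 tandem-pore channels and 9 of 13 auxiliary or regulatory subunits were above the floor. Of all 75, 52% of the potassium channel genes were above it, against 65.0% of all genes. At the upper quartile of probe sets, 9.25, the shares were 26.7% and 37.0%. The families whose measured members all passed the floor were the Kcnc and Kcnd families (3 genes each), the cytosolic Kcnab subunits (3 genes), the Kcnip calcium sensors (4 genes), Kcnma1 and Kcnt1. Every Kcnip gene also passed the upper quartile. By contrast all 3 Kcnn genes, which encode small- and intermediate-conductance calcium-activated channels, and Kcnb2, the measured delayed rectifier of the Shab family, were below the floor. Of the members above the floor, 3 had a value below it on at least 1 array, namely Kcng2, Kcnj4 and Kcnj12.

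**Figure D1:**
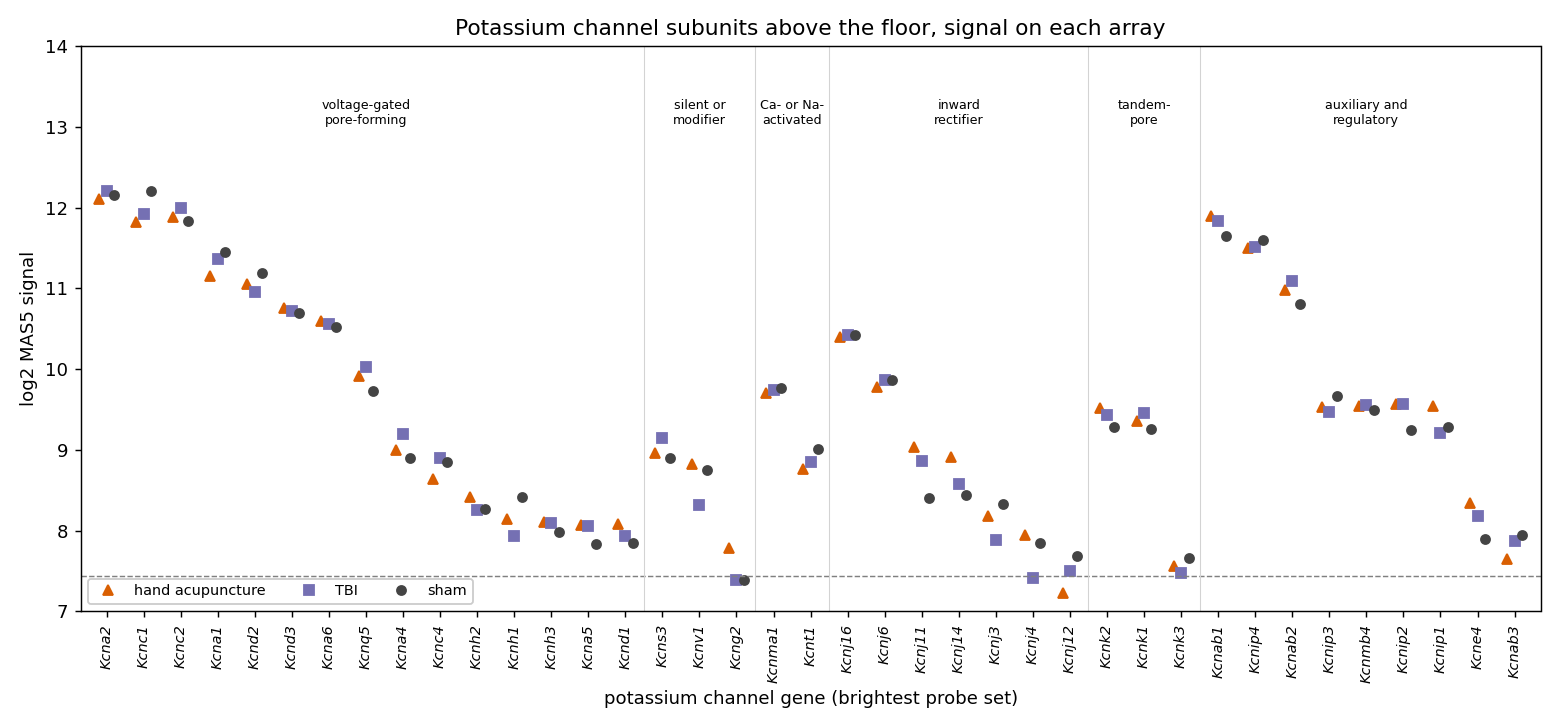
Log2 MAS5 signal of the 39 potassium channel genes above the floor (dashed line, 7.44), in classes, with triangles for hand acupuncture, squares for TBI and circles for sham, 1 array each. The 3 symbols of most genes lie close together, while those of Kcnj11, Kcnj14, Kcnj4, Kcnv1 and Kcnh1 are spread further, by up to 0.64.

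The arrays allow 3 comparisons: TBI against sham, which asks what differs after injury, and the hand acupuncture array against either of the others. Almost all of the 39 potassium channel genes above the floor differed by less than 1.5-fold in each. In TBI minus sham, 0 of 39 members were 1.5-fold apart (a log2 difference of 0.58 or more), where 1.55% of the 9241 genes above the floor were. In hand acupuncture minus TBI it was again 0 of 39, where 1.21% of all genes were. In hand acupuncture minus sham, 1 of 39 passed and was higher, where 1.89% of all genes passed either way and 0.996% in that direction. These shares are close to the background, so the count of members 1.5-fold apart is not a result about potassium channels.

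The member that passed was Kcnj11, which encodes the pore of ATP-sensitive potassium channels that link firing to the energy state of the cell. Its log2 signal was 9.04 with hand acupuncture, 8.86 with TBI and 8.40 in sham, so the sham array was the low one. It was 1.56-fold higher with hand acupuncture than in sham, the 65th highest difference among the 9241 genes. However, its other probe sets did not go one way: in hand acupuncture minus sham the 3 probe sets gave 0.64, −0.29 and 0.25, with only the first above the floor. With an offset of 50 added to the signal before the log, the difference of the first was 0.57, under the threshold. Of 9 forebrain markers, 7 were also higher in TBI minus sham (median 0.32), with Adora2a at 0.75 and Ppp1r1b at 0.60. Neurod2 at −0.56 and Neurod6 at −0.08 were lower. In hand acupuncture minus sham 4 of 9 were higher and 5 lower (median −0.02), from −0.15 (Neurod2) to 0.67 (Adora2a). The part of these markers in the Kcnj11 difference was not tested.

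At a smaller threshold, a log2 difference of 0.32, 6 of 39 members were apart in TBI minus sham, against 10.1% of all genes. Kcnj11 and Kcnip2 were the higher pair, where 5.05% of all genes were higher, and Kcnh1, Kcnj3, Kcnv1 and Kcnj4 were lower, where again 5.05% were. In hand acupuncture minus TBI there were 5 of 39, against 8.16% of all genes, and all 5 were higher (Kcnj4, Kcnv1, Kcng2, Kcnj14 and Kcnip1), where 4.04% of all genes were higher and 4.12% lower. Kcng2 passed the floor only through its hand acupuncture value, so its place among genes higher with hand acupuncture was set by the floor and gives no support. In hand acupuncture minus sham there were 7 of 39, against 11.0% of all genes. Of these, 5 were higher (Kcnj11, Kcnj14, Kcne4, Kcng2 and Kcnip2), where 5.50% of all genes were, and Kcnj12 and Kcnc1 were lower, where 5.46% were. Kcnj12 was under the floor with hand acupuncture and passed it through the other arrays. Its place among genes lower with hand acupuncture was thus set in part by the floor and gives no support. Kcnj4 was likewise under the floor on the TBI array alone. Its place among genes lower with TBI than in sham, or higher with hand acupuncture than with TBI, gives no support either. The members' shares were 15.4%, 12.8% and 17.9% in this order, and the background share of 39 genes would be 3.94, 3.18 and 4.28 genes. In all 12 members are named here, and 9 of the 12 lie between the floor and the upper quartile, where differences of all genes vary more (SD 0.25 in TBI minus sham, against 0.16 above the upper quartile).

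The median log2 difference of the 39 members was 0.02 in TBI minus sham, 0.01 in hand acupuncture minus TBI and 0.07 in hand acupuncture minus sham, where all genes above the floor had medians of 0.00, −0.00 and 0.00. Members higher numbered 22, 20 and 23 of 39, where 51.0%, 49.3% and 51.0% of all genes were higher. In the same order the SD over members was 0.23, 0.20 and 0.25, close to the 0.20, 0.19 and 0.21 over all genes. The median absolute difference was wider for members than for all genes, at 0.16 against 0.11 in TBI minus sham, 0.11 against 0.10 in hand acupuncture minus TBI and 0.15 against 0.11 in hand acupuncture minus sham. Members went both ways in each comparison. TBI minus sham and hand acupuncture minus sham share the sham array, and both comparisons with TBI share the TBI array, so no overlap between them is given.

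**Figure D2:**
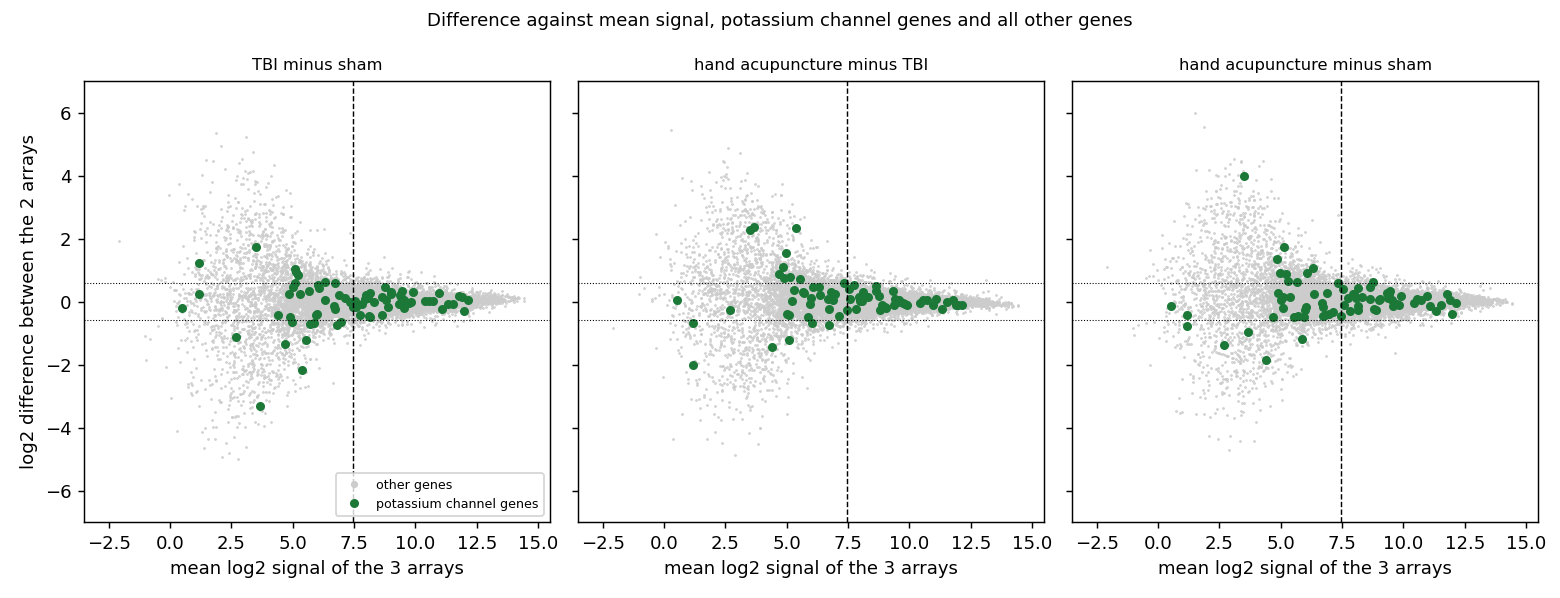
Log2 difference between 2 arrays (vertical axis) against mean log2 signal (horizontal axis) for the 75 potassium channel genes (large points) and all other named genes (small points), in 1 panel per comparison. The dashed line is the floor of 7.44 and the dotted lines mark 1.5-fold; left of the dashed line the scatter widens for potassium channel genes and other genes alike.

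**Figure D3:**
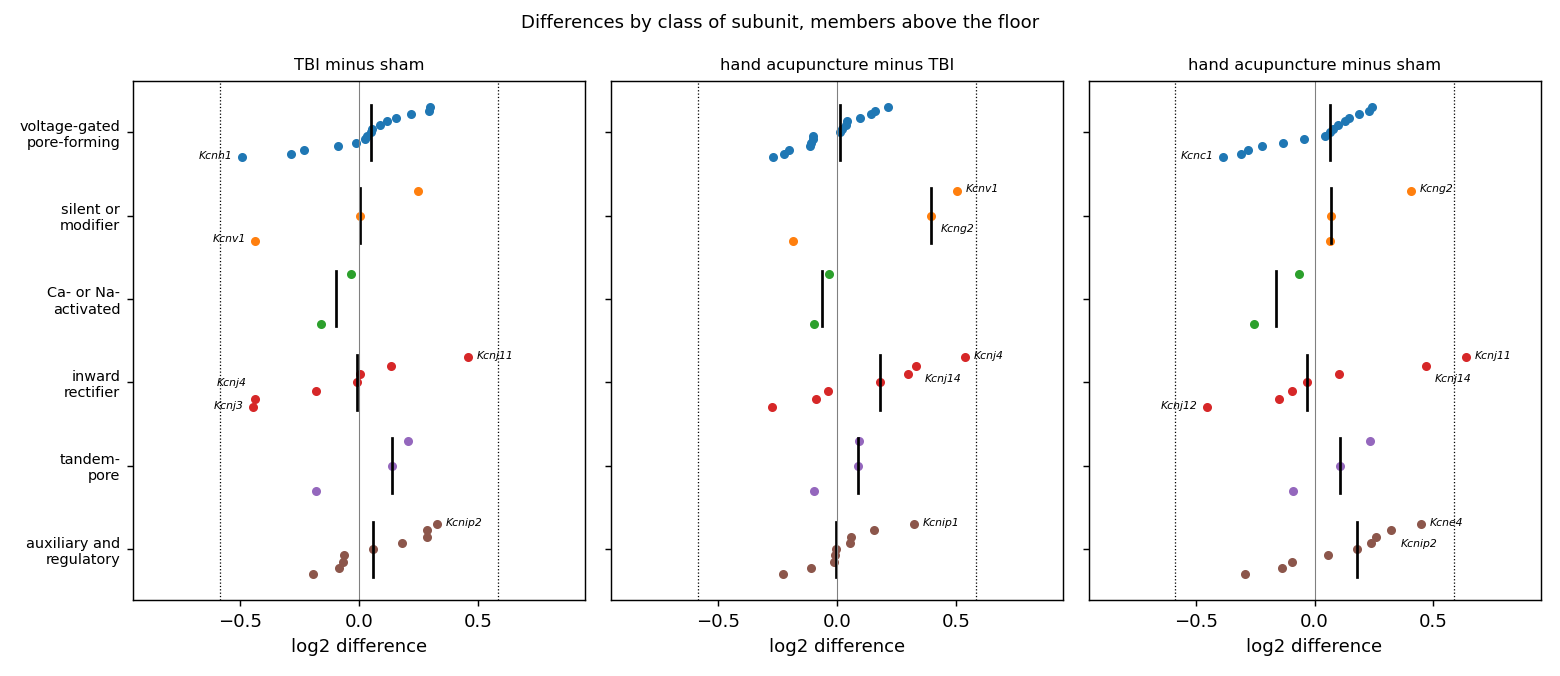
Log2 difference of each of the 39 members above the floor (points) with the median of each class (black bars), in 1 panel per comparison. Dotted lines mark 1.5-fold, labels name members at least 0.32 apart, and only Kcnj11 lies past a dotted line, in hand acupuncture minus sham.

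Sequences upstream of the transcription start are shown for Kcnh1 and Kcnj4, both lower by 0.32 or more in log2 with TBI than in sham, and for Kcnj14 and Kcne4, both higher by that much with hand acupuncture than in sham. The sequences are of a few chosen genes, and the pairs come from different comparisons. Their CG content therefore does not stand for all members that differed in either direction. Each is the 250 bases before the start in RefSeq on GRCr8, 5′ to 3′ on the gene's strand, with CG dinucleotides, the sites of DNA methylation, in capitals. The first is chr13:106252966-106253215 on the plus strand, the second chr7:112954548-112954797 on the minus strand, the third chr1:105437259-105437508 on the minus strand and the last chr9:87695798-87696047 on the plus strand.
Kcnh1: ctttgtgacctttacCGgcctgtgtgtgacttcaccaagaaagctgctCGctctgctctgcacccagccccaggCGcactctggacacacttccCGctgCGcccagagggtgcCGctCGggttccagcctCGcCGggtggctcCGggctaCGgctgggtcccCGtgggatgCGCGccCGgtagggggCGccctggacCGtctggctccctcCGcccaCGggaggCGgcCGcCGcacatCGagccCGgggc
Kcnj4: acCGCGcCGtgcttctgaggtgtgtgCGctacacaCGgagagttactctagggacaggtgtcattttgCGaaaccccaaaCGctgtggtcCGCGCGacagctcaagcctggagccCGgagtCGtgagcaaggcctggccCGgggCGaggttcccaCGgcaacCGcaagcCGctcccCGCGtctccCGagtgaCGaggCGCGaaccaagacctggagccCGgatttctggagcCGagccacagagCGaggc
Kcnj14: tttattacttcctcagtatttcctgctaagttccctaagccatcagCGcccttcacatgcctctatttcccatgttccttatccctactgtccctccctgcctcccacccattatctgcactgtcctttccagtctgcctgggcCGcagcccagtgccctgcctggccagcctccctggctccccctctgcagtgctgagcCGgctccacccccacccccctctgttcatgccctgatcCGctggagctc
Kcne4: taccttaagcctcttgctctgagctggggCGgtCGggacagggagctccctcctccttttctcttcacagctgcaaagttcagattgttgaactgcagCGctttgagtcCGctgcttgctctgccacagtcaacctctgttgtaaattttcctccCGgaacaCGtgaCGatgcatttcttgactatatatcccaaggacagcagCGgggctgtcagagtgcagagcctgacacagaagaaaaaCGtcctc
The windows of Kcnh1 and Kcnj4 hold 24 and 26 CG dinucleotides and those of Kcnj14 and Kcne4 hold 4 and 9. Other members with a window were also at least 0.32 apart in hand acupuncture minus sham. Of these, Kcng2 (29 CG) and Kcnip2 (12 CG) were higher and Kcnc1 (30 CG) was lower. RefSeq windows were matched by gene ID for 52 of the 75 genes. Their median number of CG dinucleotides was 12.5 for the 28 members above the floor and 13.5 for the 24 below it among members, while all genes had medians of 17 above the floor (7720 genes) and 8 below it (3980 genes). The range over members ran from 1 in Kcna4 to 44 in Kcnmb4. The letters TATAAA, searched on both strands, were in the windows of 2 of 52 members, Kcnj1 and Kcnj13, both below the floor, and of 8.06% of the 11700 genes with a window. The cyclic AMP response element TGACGTCA was in 0 of 52 members and in 2.64% of those genes. A match, or none, describes these letters in this window only.

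Voltage-gated pore-forming subunits had medians of 0.05 in TBI minus sham, 0.01 in hand acupuncture minus TBI and 0.06 in hand acupuncture minus sham, with 10, 8 and 9 of 15 members higher. None was 1.5-fold apart. The Shaker family (Kcna), whose Kcna1 and Kcna2 subunits sit along axons and curb repetitive firing, had 5 of 6 members above the floor. Kcna2 had log2 signals of 12.11 with hand acupuncture, 12.21 with TBI and 12.15 in sham. Kcna1 was at 11.15 with hand acupuncture, 11.37 with TBI and 11.45 in sham. The hand acupuncture array was the low one for both, by 0.31 below sham for Kcna1 and by 0.04 for Kcna2. Kcna4, the inactivating member that makes an A-type current, was at 8.99 with hand acupuncture, 9.19 with TBI and 8.90 in sham, highest on the TBI array. Kcna5 was 0.22 higher with TBI and 0.24 higher with hand acupuncture than in sham, and Kcna6 differed by at most 0.08 in any comparison.

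Kcnc genes encode Shaw-type channels, which repolarise quickly and let neurons fire at high rates. Kcnc1 had log2 signals of 11.82 with hand acupuncture, 11.91 with TBI and 12.20 in sham, the sham array being the high one. The difference was −0.29 in TBI minus sham and −0.39 in hand acupuncture minus sham, the lowest of the 15 voltage-gated members in the last. These values rest on a single probe set. Kcnc1 is also strongly used by granule cells of the cerebellum. Cerebellum markers were lower on the same arrays, 15 of 17 in TBI minus sham (median −0.44) and 16 of 17 in hand acupuncture minus sham (median −0.57), among them the granule cell gene Gabra6 at −0.62 and −0.69. Slc1a6, counted among them, was at 7.37 with hand acupuncture, 7.42 with TBI and 8.18 in sham. It passed the floor only through the sham array and gives no support. The part of the cerebellum marker shift in the Kcnc1 difference was not tested. Kcnc2 was at 11.88 with hand acupuncture and 11.84 in sham, with TBI 0.16 above sham, and Kcnc4 was at 8.64 with hand acupuncture, 8.90 with TBI and 8.85 in sham. In their brightest probe sets all 3 Kcnc genes had lower signals with hand acupuncture than with TBI (−0.10 to −0.27), where 4686 of all 9241 genes were lower. The values of Kcnc1 and Kcnc2, −0.10 and −0.11, were under the median gap of 0.14 between probe sets of a gene. Of 4 other Kcnc2 probe sets above the floor 3 were lower too, while the dimmest was 0.38 higher.

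The Shal family (Kcnd) makes the A-type current of cell bodies and dendrites. Kcnd2 had log2 signals of 11.06 with hand acupuncture, 10.96 with TBI and 11.19 in sham. Its second probe set gave 10.44 with hand acupuncture, 10.46 with TBI and 10.57 in sham, so the sham array was the high one in both. TBI minus sham was −0.23 and −0.11 in these probe sets, and hand acupuncture minus sham −0.13 in each, beside the same cerebellum marker values as for Kcnc1, whose part was not tested. Kcnd3 at 10.76 with hand acupuncture, 10.72 with TBI and 10.69 in sham differed by 0.06 or less, while its second probe set, above the floor, was 0.55 lower with hand acupuncture than in sham. Kcnd1 lay at 8.08 with hand acupuncture, 7.93 with TBI and 7.85 in sham, highest on the hand acupuncture array.

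Of the Kcnq family, whose slow M-current damps excitability, Kcnq5 alone of 3 genes passed the floor, at 9.91 with hand acupuncture, 10.02 with TBI and 9.73 in sham. It was 0.30 higher with TBI and 0.19 higher with hand acupuncture than in sham. Kcnq3, a common partner of the family, lay under the floor at 7.01 with hand acupuncture, 6.95 with TBI and 6.73 in sham. In the ether-a-go-go family (Kcnh), 3 of 8 members were above the floor. Kcnh1 had log2 signals of 8.14 with hand acupuncture, 7.93 with TBI and 8.42 in sham, an order in which the TBI array is the low one. Its TBI minus sham difference of −0.49 (1.41-fold lower) was the lowest of all 39 members and the 124th lowest among 9241 genes, and it rests on 1 probe set. Kcnh2, the gene of the ERG channel that is known best from the heart, was at 8.42 with hand acupuncture, 8.26 with TBI and 8.27 in sham, and Kcnh3 at 8.11 with hand acupuncture, 8.10 with TBI and 7.98 in sham, neither more than 0.16 apart.

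Silent subunits do not make channels alone but join Shab-type subunits and alter their gating. The 3 above the floor had medians of 0.01 in TBI minus sham, 0.40 in hand acupuncture minus TBI and 0.07 in hand acupuncture minus sham, the second of these being the value of Kcng2. Kcnv1 had log2 signals of 8.82 with hand acupuncture, 8.31 with TBI and 8.75 in sham. It was 1.36-fold lower with TBI than in sham and 1.42-fold higher with hand acupuncture than with TBI (0.51 in log2), and its hand acupuncture and sham values were within 0.07. The TBI array alone stands apart here, in the single probe set of this gene. Kcns3 went the other way, at 8.97 with hand acupuncture, 9.15 with TBI and 8.90 in sham. Kcng2 was at 7.79 with hand acupuncture, 7.39 with TBI and 7.38 in sham, the other two under the floor, so it passed the floor through the hand acupuncture array.

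Kcnma1, the pore of large-conductance channels opened by calcium and voltage together, had log2 signals of 9.70 with hand acupuncture, 9.74 with TBI and 9.77 in sham. Its neuronal beta subunit Kcnmb4 was at 9.55 with hand acupuncture, 9.55 with TBI and 9.49 in sham. In these probe sets neither gene differed by more than 0.07 in any comparison. Kcnma1 had further probe sets under the floor, with 0.03 and −0.57 in TBI minus sham and 0.12 and −0.57 in hand acupuncture minus sham. Kcnt1, a sodium-activated channel, was at 8.76 with hand acupuncture, 8.85 with TBI and 9.02 in sham, and its second probe set, above the floor, at 7.87 with hand acupuncture, 7.65 with TBI and 8.08 in sham. In both probe sets the sham array was the high one, by 0.26 and 0.22 over hand acupuncture and by 0.16 and 0.43 over TBI. A further probe set under the floor, at 7.49 with hand acupuncture, 6.97 with TBI and 6.87 in sham, was lowest in sham instead.

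Inward rectifiers were the class with the widest scatter among those with more than 3 members above the floor, with an SD of 0.32 in TBI minus sham, 0.28 in hand acupuncture minus TBI and 0.37 in hand acupuncture minus sham. In the same order the 3 silent subunits had 0.35, 0.37 and 0.19. Only 2 of the 7 inward rectifiers passed the upper quartile. The 19 members of any class between the floor and the upper quartile had SDs of 0.28, 0.25 and 0.30. The medians of the inward rectifiers were −0.01, 0.18 and −0.03, so no direction was shared. Kcnj4, a strong rectifier that holds neurons near rest, had log2 signals of 7.95 with hand acupuncture, 7.41 with TBI and 7.85 in sham. Its second probe set, under the floor, gave 7.28 with hand acupuncture, 6.68 with TBI and 7.13 in sham. Both were lowest on the TBI array. The differences were −0.44 in each probe set in TBI minus sham, and 0.54 and 0.59 in hand acupuncture minus TBI. The first of these was 1.45-fold and the 79th highest among 9241 genes. However, the brightest probe set was under the floor with TBI and passed it through the other arrays. Its place among members low with TBI was thus set in part by the floor and gives no support.

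Kcnj14, another strong rectifier, described in rat in the motor nuclei of cranial nerves, was at 8.91 with hand acupuncture, 8.58 with TBI and 8.45 in sham. In its single probe set it was 1.26-fold higher with hand acupuncture than with TBI and 1.38-fold higher than in sham. Chat, the marker of motor and other cholinergic neurons, was at 7.99 with hand acupuncture, 7.96 with TBI and 7.71 in sham, so it too was lowest on the sham array. Of the 5 hindbrain markers above the floor, 4 were higher with hand acupuncture than in sham (median 0.28). Among these, Hoxa5 and Hoxb3 were under the floor in sham, at 7.35 and 7.40, and passed it through the other arrays. Their place among markers higher than in sham was thus set in part by the floor and gives no support. In hand acupuncture minus TBI 1 of the 5 was higher (median −0.14). The part of these markers in the Kcnj14 differences was not tested. Kcnj12, of the same subfamily, had the opposite order, at 7.23 with hand acupuncture, 7.50 with TBI and 7.68 in sham, and was 1.37-fold lower with hand acupuncture than in sham. Its hand acupuncture value was under the floor, which it passed through the TBI and sham arrays. Kcnj2, the other strong rectifier measured, was under the floor at 5.22 with hand acupuncture, 4.48 with TBI and 4.96 in sham.

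Channels opened by G proteins slow the firing of neurons when opioid, serotonin or muscarinic receptors are engaged. Kcnj3 had log2 signals of 8.18 with hand acupuncture, 7.88 with TBI and 8.33 in sham, lowest on the TBI array. TBI minus sham was −0.45 in this probe set and 0.00 and 0.96 in its other probe sets, which lay under the floor. Kcnj6, with which Kcnj3 forms channels, was at 9.78 with hand acupuncture, 9.86 with TBI and 9.87 in sham and differed by at most 0.09. Kcnj9 and Kcnj5, the remaining members of that group, were under the floor at means of 5.88 and 5.99.

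Kcnj16, a glial subunit that pairs with Kcnj10, was nearly equal on the arrays in its brightest probe set, at 10.39 with hand acupuncture, 10.43 with TBI and 10.42 in sham. Its second probe set, above the floor, was at 9.60 with hand acupuncture, 9.47 with TBI and 9.74 in sham. That probe set was 0.27 lower with TBI than in sham. Kcnj10, the main potassium-buffering channel of astrocytes, lay under the floor at 6.43 with hand acupuncture, 7.18 with TBI and 6.59 in sham, highest on the TBI array. Astrocyte markers, all 14 of them above the floor, had medians of 0.05 in TBI minus sham and −0.10 in hand acupuncture minus TBI. A probe set under the floor does not show that a gene is silent. For ATP-sensitive channels, Kcnj11 stands beside Kcnj8 under the floor at 6.50 with hand acupuncture, 6.72 with TBI and 6.95 in sham, and beside their sulphonylurea receptors, Abcc8 under the floor at 7.24 with hand acupuncture, 7.04 with TBI and 7.37 in sham and Abcc9 above it at 8.84 with hand acupuncture, 9.03 with TBI and 9.04 in sham. None of these 3 had the order of Kcnj11, which was highest on the hand acupuncture array and lowest on the sham array.

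Tandem-pore channels carry background leak currents. The 3 above the floor had medians of 0.14 in TBI minus sham, 0.09 in hand acupuncture minus TBI and 0.11 in hand acupuncture minus sham. Kcnk2, which responds to stretch and lipids, had log2 signals of 9.52 with hand acupuncture, 9.43 with TBI and 9.29 in sham. Kcnk1 was at 9.36 with hand acupuncture, 9.46 with TBI and 9.25 in sham, and Kcnk3, an acid-sensitive channel, at 7.56 with hand acupuncture, 7.47 with TBI and 7.66 in sham. None of the 3 was more than 0.23 apart in any comparison. The closest member under the floor, Kcnk13, which makes a resting conductance of microglia, was at 7.74 with hand acupuncture, 7.15 with TBI and 7.16 in sham, higher with hand acupuncture than on the other arrays. Microglia markers had a median of −0.11 in hand acupuncture minus TBI, with 4 of 9 higher, where Kcnk13 gave 0.59 in its single probe set. The part of these markers in the Kcnk13 difference was not tested.

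Auxiliary subunits had medians of 0.06 in TBI minus sham, −0.00 in hand acupuncture minus TBI and 0.18 in hand acupuncture minus sham. Kcnab1, a beta subunit that speeds inactivation of Shaker channels, had log2 signals of 11.89 with hand acupuncture, 11.83 with TBI and 11.65 in sham. Its second probe set gave 8.84 with hand acupuncture, 8.81 with TBI and 8.68 in sham, the same order. Kcnab2 was at 10.98 with hand acupuncture, 11.09 with TBI and 10.80 in sham, with a second probe set above the floor that went the opposite way from sham, at 7.61 with hand acupuncture, 7.64 with TBI and 7.74 in sham. Kcnab3 was at 7.65 with hand acupuncture, 7.88 with TBI and 7.94 in sham, lowest on the hand acupuncture array.

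The Kcnip genes encode calcium sensors that bind Shal channels. Kcnip2 had log2 signals of 9.57 with hand acupuncture, 9.57 with TBI and 9.24 in sham, and was 0.33 higher with TBI and 0.32 higher with hand acupuncture than in sham, beside the same forebrain marker values as for Kcnj11, whose part was not tested. Kcnip1 was at 9.54 with hand acupuncture, 9.21 with TBI and 9.28 in sham, and its second probe set at 7.85 with hand acupuncture, 7.99 with TBI and 8.18 in sham, so the hand acupuncture array was highest in the first probe set and lowest in the second. Kcnip4 was at 11.50 with hand acupuncture, 11.52 with TBI and 11.60 in sham, with a second probe set at 9.76 with hand acupuncture, 9.98 with TBI and 10.18 in sham, both highest on the sham array. Kcnip3, which can also act in the nucleus as a repressor, was at 9.53 with hand acupuncture, 9.47 with TBI and 9.67 in sham. Kcne4, a single-pass subunit that inhibits several voltage-gated channels, was at 8.34 with hand acupuncture, 8.18 with TBI and 7.90 in sham. In its single probe set it was 1.36-fold higher with hand acupuncture than in sham.

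Genes that act with potassium channels were described from lists. Of 27 channel partners, 23 were found and 19 were above the floor, none of them 1.5-fold apart in any comparison. Their medians were 0.05 in TBI minus sham, 0.01 in hand acupuncture minus TBI and 0.03 in hand acupuncture minus sham, with 11 of 19 higher in each. Dpp6 and Dpp10, membrane partners of Shal channels, differed by at most 0.13, and Cntnap2, which holds Shaker channels beside the node of Ranvier, by at most 0.13. Vapb, whose product helps to cluster Shab channels, was 0.41 higher with TBI and 0.42 higher with hand acupuncture than in sham. Of 13 pump and cotransport genes, 9 were found and all 9 were above the floor. Fxyd1, a regulator of the sodium pump, was at 10.11 with hand acupuncture, 9.45 with TBI and 9.57 in sham, and was the only one of the 9 past 1.5-fold, in hand acupuncture minus TBI (0.65). Slc12a5, the potassium-chloride cotransporter of neurons, was at 12.78 with hand acupuncture, 12.77 with TBI and 12.76 in sham. Hcn2, the only one of 3 pacemaker channel genes above the floor, was at 7.89 with hand acupuncture, 8.20 with TBI and 8.18 in sham, lowest on the hand acupuncture array.

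Genes with several probe sets give a check within the arrays. There were 9 members with several probe sets above the floor. Their brightest and second-brightest probe sets went the same way in 5 of 9 in TBI minus sham, 4 of 9 in hand acupuncture minus TBI and 5 of 9 in hand acupuncture minus sham, where 57.4%, 54.0% and 55.5% of 2073 such genes did. The median gap between the pair was 0.14, 0.16 and 0.14 for members and 0.15, 0.14 and 0.16 for all such genes. Kcnab1 went one way with both probe sets in all 3 comparisons, as did Kcnip4, which was lower in each. Kcnc2, with 5 probe sets above the floor, ranged from −0.33 to 0.58 in hand acupuncture minus sham. Its probe sets can read different transcript forms, which was not tested.

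**Figure D4:**
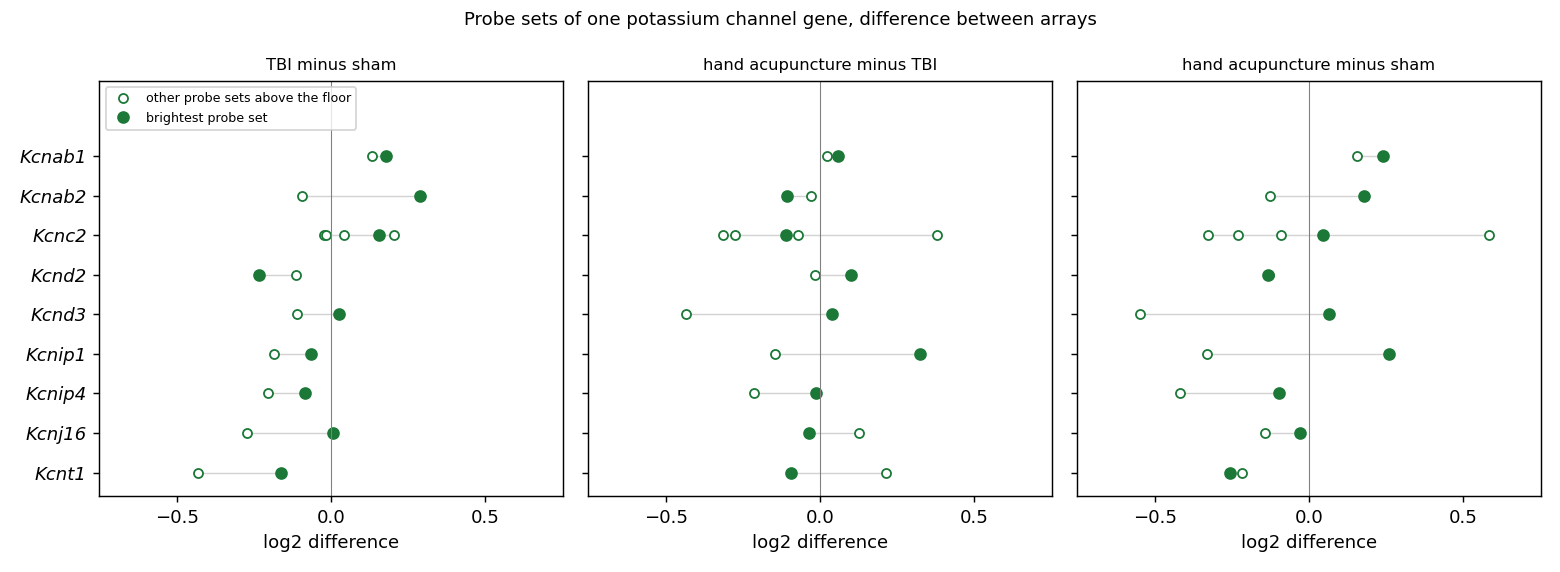
Log2 difference of each probe set above the floor for the 9 potassium channel genes that have several, with the brightest probe set filled and the others open, in 1 panel per comparison. For Kcnip1 and Kcnd3 the probe sets lie on opposite sides of 0 in hand acupuncture minus TBI and minus sham, and for Kcnab1 they lie together.

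The 36 members under the floor varied far more, as all genes there do. Their SD was 0.96 in TBI minus sham, 0.96 in hand acupuncture minus TBI and 1.01 in hand acupuncture minus sham, against 1.04, 1.00 and 1.00 for the 4976 genes under the floor. Differences ran from −3.33 (Kcnh7) to 1.74 (Kcnh4) in TBI minus sham. In hand acupuncture minus sham Kcnq1 was the lowest at −1.86 and Kcnh4 the highest, at 5.58 with hand acupuncture, 3.31 with TBI and 1.58 in sham. In the order of the SDs, medians were 0.02, 0.17 and −0.15, against 0.03, 0.09 and 0.11 for the genes under the floor. Such values are near background and are given to account for the members, which included Kcna3, Kcnj13, Kcnk9 and all 3 Kcnn genes.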

How the data were processed

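RNA of 3 pooled brainstem samples, 1 array per group, was measured on an Affymetrix rat expression array. Per the labels' protocols, Trizol RNA (6 µg) was made into biotinylated cRNA. MAS5, with no version, is named in the submitters' processing notes. The authors deposited log2 signals: on the linear scale the mean of each array, with 2% trimmed at either end, was 500.0, so log base and scaling were read from the values. The number of arrays limits the precision.

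Gene names came from the platform annotation of 2016; all 75 genes matched a RefSeq table of GRCr8 by identifier and 0 symbols changed. Differences were taken between arrays as deposited, with no test. Members and lists were chosen with earlier results of these data known. Members named by rule were the 12 brightest, the brightest of each subfamily, the 8 highest and 8 lowest per comparison, and those past 1.5-fold, 34 in all; others were named after their values were seen. Alternatives were quantile normalization, median centring, a floor at the upper quartile, no floor, an offset of 50, the mean of all probe sets, the second-brightest probe set, and other fold thresholds. Scripts (Python 3.11.15, numpy 2.4.6, pandas 2.3.3, matplotlib 3.10.9) were tested on simulated data.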

Additional observations from a re-analysis of the deposited data

How the results depend on the processing

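The count of members 1.5-fold apart depended on the floor and the gene value. With no floor it was 18 of 75 in TBI minus sham (24%, against 13.6% of all genes), 16 in hand acupuncture minus TBI (21.3%, against 13.2%) and 15 in hand acupuncture minus sham (20%, against 14.3%). Apart from Kcnj11 all of these were under the floor, where 36 of 75 members but 4976 of 14217 genes lay. Under it, 8 of 36 members were higher and 10 lower in TBI minus sham, against 942 and 842 of 4976 genes. In hand acupuncture minus TBI they were 10 and 6, against 1077 and 693. In hand acupuncture minus sham they were 9 and 5, against 1163 and 698. At the log2 threshold of 0.32 the count above the floor was 6, 5 and 7 of 39. With the mean of all probe sets TBI minus sham gave 1, Kcnd3. The offset of 50 and a 2-fold threshold each ended the call of Kcnj11 (0 called), and quantile normalization and median centring kept it. The count was also 0 in hand acupuncture minus sham with the upper quartile as floor, the mean of all probe sets and the second-brightest probe set, but Kcnj11 was not among the genes kept there.

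Medians of all members moved by less than the median gap between probe sets of a gene in every setting but the second-brightest probe set, where hand acupuncture minus sham was −0.14 over 9 genes. With no floor, class medians in TBI minus sham were 0.25 for silent, 0.62 for calcium- or sodium-activated, −0.21 for inward rectifier and −0.015 for tandem-pore genes, and in hand acupuncture minus sham 0.40 for silent and −0.17 for tandem-pore genes. With the mean of all probe sets, hand acupuncture minus TBI was 0.16 for silent, 0.12 for calcium- or sodium-activated and −0.10 for tandem-pore genes, and hand acupuncture minus sham −0.0042 for auxiliary genes.

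Of the named members' values, the second-brightest probe set moved 13 of 27 by more than that gap and the mean of probe sets 11 of 30 for members with several. Quantile normalization, median centring and the offset moved 0 of 102 each. For median centring this was fixed in advance. The log2 medians of the arrays were 7.445 with hand acupuncture, 7.444 with TBI and 7.449 in sham, too close to shift a value by that gap. The choice of floor cannot move a single value. No paired analysis was possible because each group is 1 array. The causes were not tested.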

Other observations

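Several potassium channel genes lie next to each other among protein-coding genes in the RefSeq table of GRCr8. Kcna5, Kcna1 and Kcna6 follow one another on chromosome 4 and were all above the floor. Their hand acupuncture minus sham differences were 0.24, −0.31 and 0.08, and their TBI minus sham differences 0.22, −0.09 and 0.03. Kcna5 and Kcna6 were thus higher and Kcna1 lower in both. In 4 further neighbouring pairs (Kcnip1 and Kcnmb1, Kcnj16 and Kcnj2, Kcnj6 and Kcnj15, Kcna2 and Kcna3) 1 gene was above the floor and the other under it, and both genes were under it in the pairs Kcnj9 with Kcnj10 and Kcnj5 with Kcnj1. In that last pair the genes shared a sign in each comparison, at values near background.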
